A study of Mus musculus with 24 samples.

Results

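The genes described here make ribosomes: the RNA polymerase I machinery and the nucleolar proteins that process ribosomal RNA (rRNA) and assemble the subunits. They were chosen by name from a list of 58 gene symbols. Of these, 57 have a row among the 23235 rows of the deposited expression table, and Noc2l is not analysed here. All 57 averaged at least 1 FPKM across columns, the filter on low values that left 10262 tested genes. FPKM is the number of RNA fragments scaled by transcript length and library size, so levels of different genes can be set side by side.

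RNA-seq was run on T11, a claudin-low mammary tumour cell line of the mouse, which carries a luciferase gene in every group. The 8 groups are cells given PBS, Omomyc, FPP-1746 or the fusion FPP-1746-Omomyc, the peptides at 5 µM, each for 3 h or 6 h, with 3 biological replicates per group. Omomyc is an engineered MYC dimerisation domain, which binds MAX and E-box DNA in place of MYC. FPP-1746 is a peptide that carries cargo into cells, and the fusion links both. For the fusion at 6 h the treatment tag reads 3 h, unlike the titles. The titles and the table's column name were followed. One cell line and one dose were used.

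The table holds the authors' average for each group, 8 columns in all, so every value below is a mean of 3 replicates with no spread to set beside it. No test could be run and no difference has a replicate check. A gene was called higher or lower where FPKM + 1 differed at least 2-fold, and a 1.5-fold rule was used as a second reading. All log2 ratios are of FPKM + 1. The Omomyc and FPP-1746 columns serve as a reading of how far columns vary without the fusion. Column totals ran from 445657 to 594951 FPKM, with the 3 h fusion column at the top. In bulk RNA, fewer cells of a type and less RNA per cell cannot be told apart. The depth of single libraries is not known from averaged FPKM. Of the fixed markers, the 8 mesenchymal genes summed to at least 4040 FPKM in every column. Vim made up most of each sum, at 3302 to 5128 FPKM, while Snai2 was at 4.11 FPKM in PBS at 3 h. All 10 epithelial and claudin genes were under 1 FPKM in every column. Claudin-low tumours are known for low levels of such genes. Macrophage markers summed to 11.2 and 14.3 FPKM in PBS and to 81.0 and 121 FPKM with the fusion at 3 h and 6 h. Cd14 made up most of these sums, at 10.1 and 77.4 FPKM in PBS and fusion at 3 h and at 12.9 and 118 FPKM at 6 h. Of the 7 genes, 5 (Csf1r, Emr1, Itgam, Ptprc and Lyz2) were under 1 FPKM in every column, and Emr1 was at 0. Endothelial markers summed to at most 0.182 FPKM in any column, and the adipocyte markers to at most 2.76 FPKM. The part of such cells in the results was not tested.

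RNA polymerase I makes one transcript, the long precursor of the 18S, 5.8S and 28S rRNAs. UBTF marks and bends the rDNA promoter, and RRN3 carries the polymerase to it. In the nucleolus, box C/D and box H/ACA ribonucleoproteins then guide 2′-O-methylation and pseudouridylation of the precursor, the small subunit processome folds and cuts its 18S part, and a separate set of factors builds the large subunit. MYC is known to raise the transcription of many of these genes through E-box sites, which is why the family is of interest where MYC is inhibited.

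Because Omomyc acts at E-boxes, the promoter windows of the members were read for the palindromic E-box CACGTG, which is the same on both strands. The sequences come from the RefSeq-based promoter table of build GRCm38.p6, each running from 250 bases before a gene's start to 50 bases after it. This table held a window for 50 of the 57 members. The E-box was found in 11 of the 50 members (22.0%), in 12.6% of the 7334 tested genes with a window, and in 8.09% of all 27025 genes in the promoter table. In 5 members a site lay before the start: Rrn3, Nop2, Imp4, Exosc5 and Utp18. In 6 it lay after the start: Nle1, Wdr43, Utp20, Tsr1, Pes1 and Mybbp1a.

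The 250 bases before the start are printed for the members with a site there that had the 2 lowest ratios or the highest ratio to PBS at 3 h or 6 h, 4 genes in all, and for Polr1b, the member furthest below PBS at 3 h, in whose window no CACGTG was found. Capitals mark the E-box. Rrn3 lies at chr16:13780449-13780698 on the plus strand, Nop2 at chr6:125131633-125131882 on the plus strand, Exosc5 at chr7:25658903-25659152 on the plus strand, Utp18 at chr11:93885767-93886016 on the minus strand and Polr1b at chr2:129100746-129100995 on the plus strand, all in GRCm38.p6.
Rrn3: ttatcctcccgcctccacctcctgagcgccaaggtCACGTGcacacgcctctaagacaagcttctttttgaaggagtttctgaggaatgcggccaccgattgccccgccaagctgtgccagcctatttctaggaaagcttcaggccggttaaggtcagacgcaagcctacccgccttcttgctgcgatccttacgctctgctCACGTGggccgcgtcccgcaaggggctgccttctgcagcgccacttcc
Nop2: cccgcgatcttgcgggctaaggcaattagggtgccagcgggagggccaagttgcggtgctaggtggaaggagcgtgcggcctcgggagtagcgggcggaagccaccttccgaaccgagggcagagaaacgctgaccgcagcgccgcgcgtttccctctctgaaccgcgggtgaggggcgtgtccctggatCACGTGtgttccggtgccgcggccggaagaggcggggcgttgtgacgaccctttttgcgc
Exosc5: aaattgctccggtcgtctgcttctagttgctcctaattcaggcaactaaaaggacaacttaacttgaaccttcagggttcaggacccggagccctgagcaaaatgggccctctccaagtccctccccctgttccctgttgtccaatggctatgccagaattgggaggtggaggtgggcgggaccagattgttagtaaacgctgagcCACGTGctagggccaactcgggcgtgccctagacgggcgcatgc
Utp18: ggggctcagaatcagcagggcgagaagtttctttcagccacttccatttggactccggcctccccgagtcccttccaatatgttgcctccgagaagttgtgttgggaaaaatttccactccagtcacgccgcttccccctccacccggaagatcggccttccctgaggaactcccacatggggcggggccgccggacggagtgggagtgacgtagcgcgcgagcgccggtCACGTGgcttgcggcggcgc
Polr1b: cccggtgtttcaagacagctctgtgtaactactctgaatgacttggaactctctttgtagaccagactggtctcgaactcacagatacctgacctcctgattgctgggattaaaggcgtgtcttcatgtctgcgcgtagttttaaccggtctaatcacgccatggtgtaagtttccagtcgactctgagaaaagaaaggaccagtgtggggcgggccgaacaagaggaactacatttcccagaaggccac
Rrn3 holds a pair of sites, whose first bases lie 215 and 48 bases before the start. The single sites of Nop2, Exosc5 and Utp18 begin 60, 44 and 20 bases before it.

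With the fusion at 3 h the 7 listed genes of the transcription machinery had the lowest median of the 7 roles. The 13 other genes of polymerase I and its factors, described last, had a median of only -0.22, with 5 above PBS. The 7 genes of RNA polymerase I and its factors had a median log2 ratio of -0.85 against PBS, where the median of all tested genes was 0.0034, and 4 of them were past 1.5-fold lower. At 6 h their median was -0.17 (-0.087 with quantile normalisation) and none was past 1.5-fold. The median of all tested genes was then -0.026. Over all 57 members the medians were -0.28 at 3 h and -0.17 at 6 h. At 3 h 5 members were called 2-fold lower, 8.77% of them, beside 4.42% of all tested genes. No member was called 2-fold higher, beside 6.13% of all tested genes. At 6 h no member passed 2-fold in either direction, where 7.13% of all tested genes were higher and 3.34% lower.

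The 1.5-fold rule gave 13 members lower and 1 higher at 3 h, beside 14.5% and 15.7% of all tested genes. The rule gave at 6 h 4 lower and 4 higher, 7.02% of members each way, below the 15.2% lower and 17.4% higher among all tested genes. Members past 1.5-fold were thus rarer at 6 h than among all tested genes. The median absolute log2 ratio was 0.30 for members and 0.41 for all tested genes at 6 h, and 0.31 and 0.37 at 3 h.

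Polr1b encodes the second-largest subunit of the polymerase and lies on chromosome 2 from 128926732 to 128952331 (mm9). It stood at 32.1 FPKM after PBS, 32.6 after Omomyc, 33.1 after FPP-1746 and 10.9 after the fusion at 3 h, a log2 ratio of -1.48. At 6 h it was at 25.7 FPKM after PBS, 23.4 after Omomyc, 27.2 after FPP-1746 and 20.4 after the fusion, a log2 ratio of -0.32. The fusion column at 3 h held 33.9% of the PBS value, the lowest share of any member, and the 3 other columns of that time lay close together. At 6 h the fusion column was again the lowest, with the Omomyc column next.

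Polr1e encodes PAF53, a polymerase I subunit that binds UBTF. Its level was 15.7 FPKM after PBS, 14.8 after Omomyc, 15.3 after FPP-1746 and 6.79 after the fusion at 3 h (log2 ratio -1.10), the lowest level of any member in each column. At 6 h the values were 14.9 FPKM after PBS, 14.7 after Omomyc, 15.6 after FPP-1746 and 13.1 after the fusion (-0.17). The gap to the other columns at 3 h was thus much wider than at 6 h.

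Ubtf and Rrn3, the initiation factors, came close to 2-fold without reaching it. Ubtf was at 46.8 FPKM with the fusion, against 92.2, 87.1 and 91.4 in PBS, Omomyc and FPP-1746 at 3 h, a log2 ratio of -0.96, and at 65.3 FPKM with the fusion, against 72.3, 73.4 and 68.3 in PBS, Omomyc and FPP-1746 at 6 h (-0.14). Rrn3 was at 29.7 FPKM with the fusion, against 54.2, 54.6 and 53.5 in PBS, Omomyc and FPP-1746 at 3 h (-0.85), and at 41.2 FPKM with the fusion, against 50.8, 48.4 and 51.3 in PBS, Omomyc and FPP-1746 at 6 h (-0.30). In both genes the fusion column was below the 3 others at each time. With quantile normalisation Ubtf passed 2-fold at 3 h, at -1.03. In PBS itself Ubtf was lower at 6 h than at 3 h, by a log2 ratio of -0.35.

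Polr1a encodes the largest, catalytic subunit and differed less. It was at 36.8 FPKM after PBS, 37.9 after Omomyc, 40.2 after FPP-1746 and 29.4 after the fusion at 3 h (-0.31) and at 34.7 FPKM after PBS, 34.8 after Omomyc, 38.2 after FPP-1746 and 34.4 after the fusion at 6 h (-0.01). Its spread between PBS and FPP-1746, at log2 ratios of 0.13 and 0.14, exceeded its 6 h difference with the fusion.

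Polr1c and Polr1d encode the pair of subunits that RNA polymerase I shares with RNA polymerase III, and neither was past 1.5-fold lower. Polr1c was at 103 FPKM after PBS, 103 after Omomyc, 101 after FPP-1746 and 157 after the fusion at 3 h, a log2 ratio of 0.60, the one member past 1.5-fold higher at that time. Its 6 h values were 108 FPKM after PBS, 101 after Omomyc, 104 after FPP-1746 and 98.4 after the fusion (-0.14), so its high value was seen in a single column. Polr1d, the most abundant of the 7, was at 204 FPKM after PBS, 212 after Omomyc, 213 after FPP-1746 and 201 after the fusion at 3 h (-0.02) and at 202 FPKM after PBS, 209 after Omomyc, 215 after FPP-1746 and 173 after the fusion at 6 h (-0.22). Of the 7 genes, Polr1c was thus above PBS at 3 h, Polr1d level with it and the other 5 below it. Other genes of the machinery, described last, lay on both sides, among them Znrd1, a subunit gene specific to polymerase I, at 59.2 and 75.7 FPKM (0.35). With quantile normalisation Polr1c was at 0.39 and Polr1d at -0.25 at 3 h, so Polr1d was then below PBS as well.

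**Figure D1:**
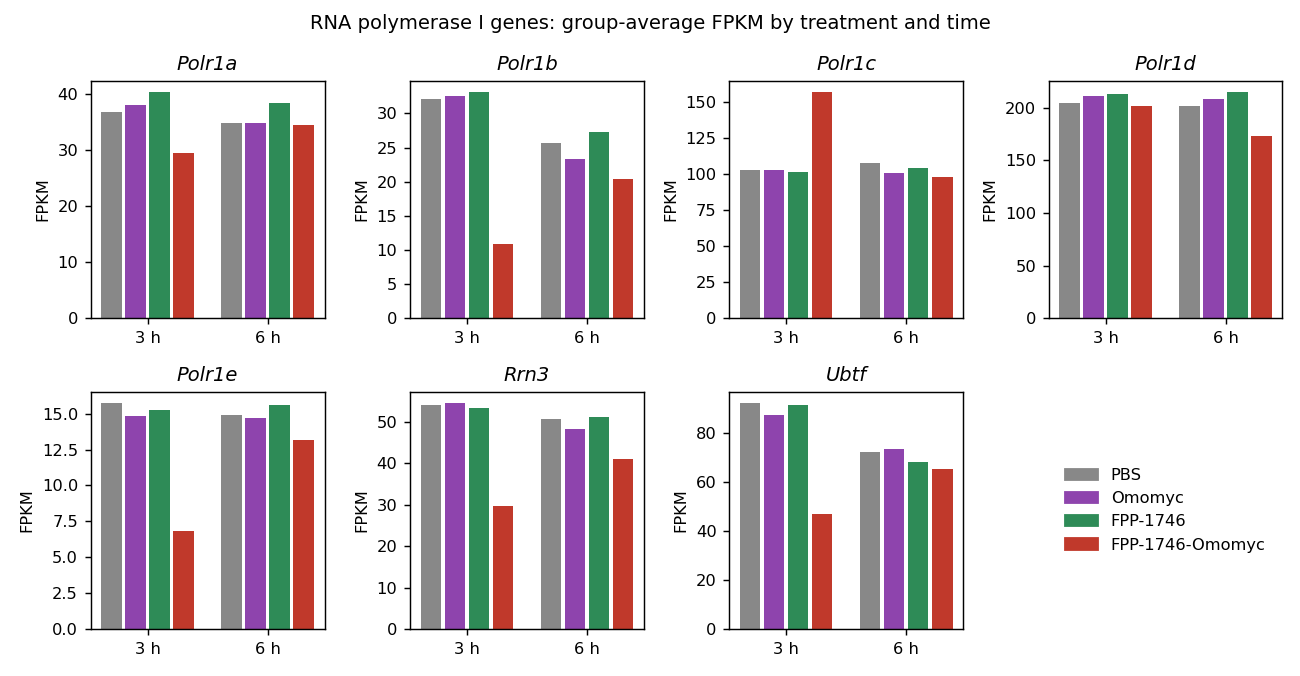
Group-average FPKM of the 7 RNA polymerase I genes (y axis, from 0) in the 4 treatments at 3 h and 6 h, each bar a single group mean without error. At 3 h the fusion bar (red) is below the others for 6 genes and above them for Polr1c, and Polr1b goes from 32.1 FPKM in PBS to 10.9 FPKM with the fusion.

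The record for the product of this polymerase, the rRNA precursor, is Rn45s, and its FPKM ran the other way. The precursor contains the mature rRNA sequences, so precursor and mature rRNA cannot be told apart in this value. How much rRNA was left in each library is not known either, so the value is no measure of the polymerase's output. At 3 h Rn45s went from 138 FPKM after PBS to 233 FPKM after the fusion, and at 6 h from 181 to 999.6 FPKM. The part-alone columns lay between 84.0 and 178 FPKM, so columns without the fusion also differed by more than 1.5-fold. Myc, whose product the design targets, went from 161 to 422 FPKM between PBS and the fusion at 3 h, and between them from 106 to 447 FPKM at 6 h.

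The fusion column lay outside the range of the 3 other columns of its time for most genes in the table, so this measure separates little by itself. It was below all 3 for 45 of 57 members at 3 h, beside 45.9% of all tested genes, and above all 3 for 10, beside 46.0%. At 6 h it was below for 35 members, beside 47.3%, and above for 18, beside 44.0%. Members lay on the low side at 3 h more often than a typical gene, and less so at 6 h.

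**Figure D2:**
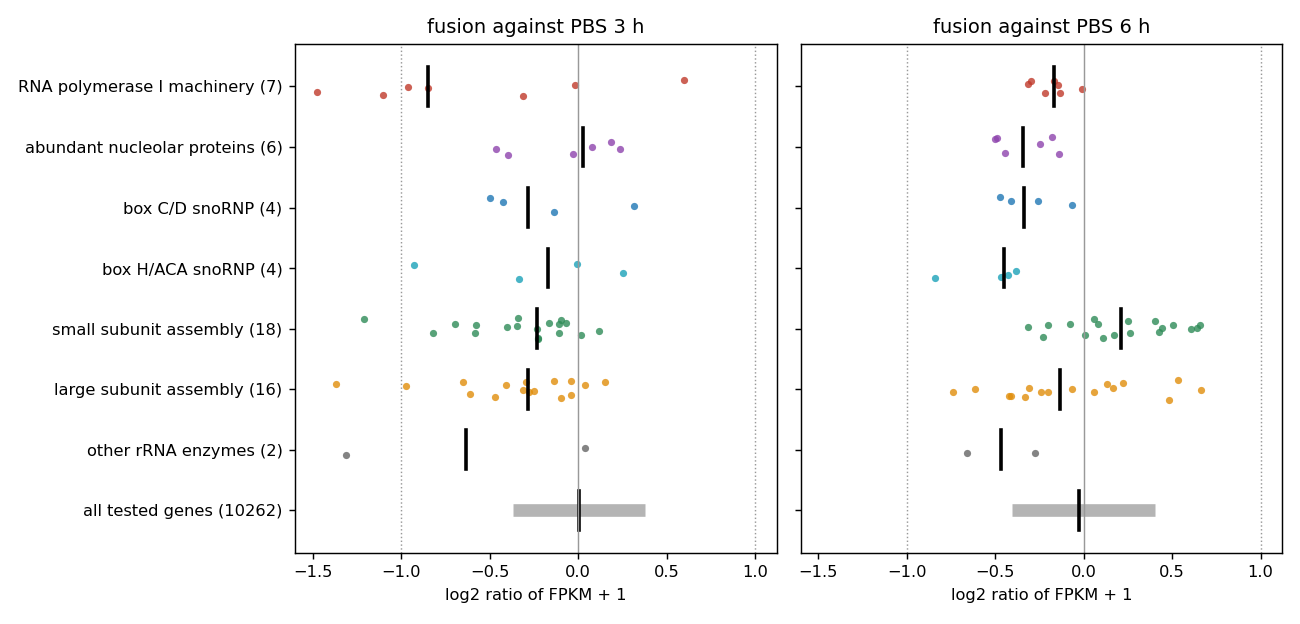
Log2 ratio of FPKM + 1, fusion against PBS (x axis), for each member (points) in 7 roles (number of genes in brackets) at 3 h (left) and 6 h (right), with the median as a black line, the quartile range of all tested genes as a grey bar, and dotted lines at 2-fold. The polymerase I median goes from -0.85 to -0.17, and the small subunit median from -0.23 to 0.21.

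The genes grouped as abundant nucleolar proteins lay on both sides of PBS at 3 h. At 6 h all were below it, beside 51.7% of all tested genes. Protein levels were not measured, and Gnl3 of this group, at 100.2 FPKM in PBS at 3 h, was below Polr1d of another role, at 204 FPKM. The 6 genes had 3 above and 3 below PBS at 3 h, with a median of 0.026, and a median absolute ratio of 0.21. The 6 h median was -0.34, and none passed 1.5-fold at either time. With quantile normalisation the 3 h median was -0.29, so the scaling decides its sign, while at 6 h it was below 0 under every setting tried, between -0.35 and -0.23.

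Npm1 encodes nucleophosmin, a histone and ribosome chaperone that gives the nucleolus its outer granular structure, and was the most abundant member in every column. It was at 469 FPKM after PBS, 477 after Omomyc, 459.8 after FPP-1746 and 533 after the fusion at 3 h (0.19, or -0.25 with quantile normalisation) and at 469.6 FPKM after PBS, 481 after Omomyc, 495 after FPP-1746 and 345 after the fusion at 6 h (-0.44). At 6 h the fusion column was far below the other 3, which spanned 470 to 495 FPKM. Npm1 has near-identical pseudogenes that can take part of its reads. Ncl encodes nucleolin, an RNA-binding protein that acts in rDNA transcription and early processing. Its level was 381 FPKM after PBS, 391 after Omomyc, 382 after FPP-1746 and 374 after the fusion at 3 h (-0.03, or -0.33 with quantile normalisation) and 372 FPKM after PBS, 357 after Omomyc, 374 after FPP-1746 and 265 after the fusion at 6 h (-0.49). As for Npm1, the gap below the other columns was seen at 6 h.

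Nolc1 encodes Nopp140, a chaperone of small nucleolar ribonucleoproteins. It was at 138 FPKM with the fusion, against 183, 180.2 and 177 in PBS, Omomyc and FPP-1746 at 3 h (-0.40) and at 125 FPKM with the fusion, against 177, 159 and 176 in PBS, Omomyc and FPP-1746 at 6 h (-0.50), below the others at both times. Ddx21, an RNA helicase of rRNA transcription and processing, was at 118 FPKM with the fusion, against 164, 173 and 171 in PBS, Omomyc and FPP-1746 at 3 h (-0.47). At 6 h it was at 131 FPKM with the fusion, against 145, 137 and 146 in PBS, Omomyc and FPP-1746 (-0.14), close to the Omomyc column. Gnl3 encodes nucleostemin, a nucleolar GTPase. It stood at 118 FPKM with the fusion, against 100.2, 103 and 99.3 in PBS, Omomyc and FPP-1746 at 3 h (0.24), above the others, and at 97.3 FPKM with the fusion, against 116, 113 and 110.0 in PBS, Omomyc and FPP-1746 at 6 h (-0.25), below them. Mybbp1a, which encodes a nucleolar MYB-binding protein, was at 269 FPKM with the fusion, against 254, 267 and 266 in PBS, Omomyc and FPP-1746 at 3 h (0.08, or -0.18 with quantile normalisation). Its 6 h values were 235 FPKM with the fusion, against 266, 260.2 and 274 in PBS, Omomyc and FPP-1746 (-0.18).

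The genes of box C/D and box H/ACA ribonucleoproteins were below PBS at 6 h in all 8 cases, beside 51.7% of all tested genes. Among the 8, Dkc1 alone was past 1.5-fold, and Fbl was nearly level with PBS (-0.06). Box C/D particles carry the methyltransferase fibrillarin on the scaffold proteins NOP56 and NOP58. Their 4 genes, which include the U3 protein gene Rrp9, had medians of -0.28 at 3 h and -0.34 at 6 h. Without genes in shared loci these were 0.090 and -0.16, and with quantile normalisation they were -0.45 and -0.19. Nop58 was at 280.2 FPKM after PBS, 283 after Omomyc, 284 after FPP-1746 and 198 after the fusion at 3 h (-0.50) and at 266 FPKM after PBS, 261 after Omomyc, 262 after FPP-1746 and 199 after the fusion at 6 h (-0.41). Nop56 was at 97.1 FPKM with the fusion, against 131, 125 and 122 in PBS, Omomyc and FPP-1746 at 3 h (-0.43) and at 124 FPKM with the fusion, against 173, 157 and 165 in PBS, Omomyc and FPP-1746 at 6 h (-0.47). Both scaffold genes were thus below every other column by a similar ratio at the 2 times. The table gives both genes a locus shared with small nucleolar RNAs, and Nop56 also with Idh3b, so reads of neighbours may be mixed. In PBS itself Nop56 was higher at 6 h than at 3 h, by a log2 ratio of 0.40.

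Fbl, the fibrillarin gene, did not follow its partners. It was at 20.1 FPKM after PBS, 23.1 after Omomyc, 21.4 after FPP-1746 and 25.3 after the fusion at 3 h (0.32) and at 17.8 FPKM after PBS, 21.2 after Omomyc, 23.0 after FPP-1746 and 17.0 after the fusion at 6 h (-0.06). Its columns without the fusion already spread between 17.8 and 23.1 FPKM, and its ratio of 0.35 with FPP-1746 at 6 h was the largest of any member with a part alone. Rrp9 was at log2 ratios of -0.14 and -0.26.

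Box H/ACA particles carry the pseudouridine synthase dyskerin with NHP2, NOP10 and GAR1, which telomerase RNA also uses. Dkc1, the dyskerin gene, was at 136 FPKM after PBS, 137 after Omomyc, 134 after FPP-1746 and 71.1 after the fusion at 3 h, a log2 ratio of -0.93. At 6 h it was at 139 FPKM after PBS, 129 after Omomyc, 139 after FPP-1746 and 77.1 after the fusion, a log2 ratio of -0.84, the furthest below PBS of any member at that time. Of the 13 members past 1.5-fold lower at 3 h, Dkc1 and Wdr12 were also past it at 6 h. The table gives Dkc1 a locus shared with Mpp1. With quantile normalisation Dkc1 passed 2-fold at 3 h, at -1.04.

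The other 3 H/ACA genes were all below the other columns at 6 h. Gar1 was at 124 FPKM with the fusion, against 156, 150.0 and 149 in PBS, Omomyc and FPP-1746 at 3 h (-0.33) and at 107 FPKM with the fusion, against 144, 138 and 148 in PBS, Omomyc and FPP-1746 at 6 h (-0.43). Nhp2 was at 202 FPKM with the fusion, against 263, 259 and 273 in PBS, Omomyc and FPP-1746 at 6 h (-0.38), after 253 FPKM with the fusion, against 255, 250.2 and 261 in PBS, Omomyc and FPP-1746 at 3 h (-0.01), within the range of the other columns. Nop10 was above the other columns at 3 h, with 181 FPKM with the fusion, against 152, 153 and 156 in PBS, Omomyc and FPP-1746 (0.25). It was below them at 6 h, with 113 FPKM with the fusion, against 157, 153 and 150.3 in PBS, Omomyc and FPP-1746 (-0.47). The median of the 4 genes was -0.17 at 3 h and -0.45 at 6 h. At 3 h it was -0.40 with quantile normalisation and -0.039 without genes in shared loci.

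The 18 listed genes of small subunit assembly went from mostly below PBS at 3 h to mostly above it at 6 h. The 35 other small subunit genes, described last, were not mostly above it at 6 h, with 19 below and 16 above. The 18 genes had a median of -0.23 at 3 h, with 16 below 0, and of 0.21 at 6 h, with 14 above 0. Of these, 12 were below PBS at 3 h and above it at 6 h. Over all members this pattern was seen in 19 of 57 (33.3%), and in 18.2% of all tested genes. The ratio to PBS was greater at 6 h than at 3 h in 18 of the 18 genes, beside 48.1% of all tested genes. Since the PBS columns of the 2 times differ, the ratios were also taken against the mean of both PBS columns. The medians were then -0.20 and 0.13, with the same signs. With quantile normalisation they were -0.32 and 0.26.

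Nol10, the homologue of the yeast processome factor Enp2, was the lowest of the 18 at 3 h. It was at 46.6 FPKM after PBS, 46.0 after Omomyc, 46.6 after FPP-1746 and 19.6 after the fusion at 3 h (-1.21) and at 43.6 FPKM after PBS, 40.5 after Omomyc, 41.0 after FPP-1746 and 37.7 after the fusion at 6 h (-0.20). It was called lower at 3 h, and at 6 h its fusion value was just under those of the part-alone columns.

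Ddx10, a DEAD-box helicase of the processome, stood highest of the 18 at 6 h. At 3 h it was at 35.0 FPKM after PBS, 35.1 after Omomyc, 36.4 after FPP-1746 and 33.3 after the fusion (-0.07), and at 6 h at 28.3 FPKM after PBS, 29.9 after Omomyc, 31.2 after FPP-1746 and 45.3 after the fusion (0.66). In PBS itself Ddx10 was lower at 6 h by a log2 ratio of -0.30, and the fusion value at 6 h exceeded all 7 other columns. Imp3, which pairs the U3 RNA with the precursor, was at 76.9 FPKM after PBS, 80.8 after Omomyc, 81.4 after FPP-1746 and 83.7 after the fusion at 3 h (0.12), a difference lost with quantile normalisation at -0.0027. Its 6 h values were 70.3 FPKM after PBS, 76.7 after Omomyc, 77.7 after FPP-1746 and 110.1 after the fusion (0.64), the highest of the 8 columns.

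Utp15, a member of the subcomplex that links rDNA transcription to processing, was at 30.9 FPKM with the fusion, against 41.1, 40.5 and 40.8 in PBS, Omomyc and FPP-1746 at 3 h (-0.40). At 6 h it was at 49.7 FPKM with the fusion, against 32.3, 31.2 and 34.2 in PBS, Omomyc and FPP-1746 (0.61), the highest of the 8 columns. Of its partners in that subcomplex, Wdr75 was at -0.70 and 0.01, Heatr1 at -0.34 and 0.17, and Wdr43 at -0.23 and 0.08 on the log2 scale at 3 h and 6 h. At 6 h the fusion values of Wdr75 and Heatr1 lay within the range of the other columns. Outside the 57 genes, Cirh1a of the same subcomplex was at -0.28 and 0.28, while Nol11 was below PBS at both times, at -0.89 and -0.39.

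Rrp12 and Tsr1 act in the export and late maturation of the small subunit. Rrp12 was at 30.3 FPKM with the fusion, against 32.8, 33.9 and 35.5 in PBS, Omomyc and FPP-1746 at 3 h (-0.11), and at 41.3 FPKM with the fusion, against 28.8, 28.7 and 33.1 in PBS, Omomyc and FPP-1746 at 6 h (0.51). Tsr1 was at 82.4 FPKM with the fusion, against 89.1, 90.0 and 90.8 in PBS, Omomyc and FPP-1746 at 3 h (-0.11), and at 100.4 FPKM with the fusion, against 73.5, 66.9 and 74.7 in PBS, Omomyc and FPP-1746 at 6 h (0.45), in a locus that the table shares with Srr and a small nucleolar RNA. Nop14 was at 0.43, with Utp14a at 0.26 and Utp18 at 0.25. Noc4l, a partner of NOP14, went the other way and was the lowest of the 18 at 6 h, with 42.3 FPKM with the fusion, against 52.8, 46.9 and 50.1 in PBS, Omomyc and FPP-1746 (-0.31). Its 3 h values were 35.8 FPKM with the fusion, against 45.7, 47.0 and 47.0 in PBS, Omomyc and FPP-1746 (-0.34). Utp6, Imp4 and Nol10 were the other genes of the 18 below PBS at 6 h, at -0.23, -0.08 and -0.20. At 3 h Utp3 was at -0.82, Utp6 at -0.58, Nol6 at -0.58 and Utp20 at -0.16.

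**Figure D3:**
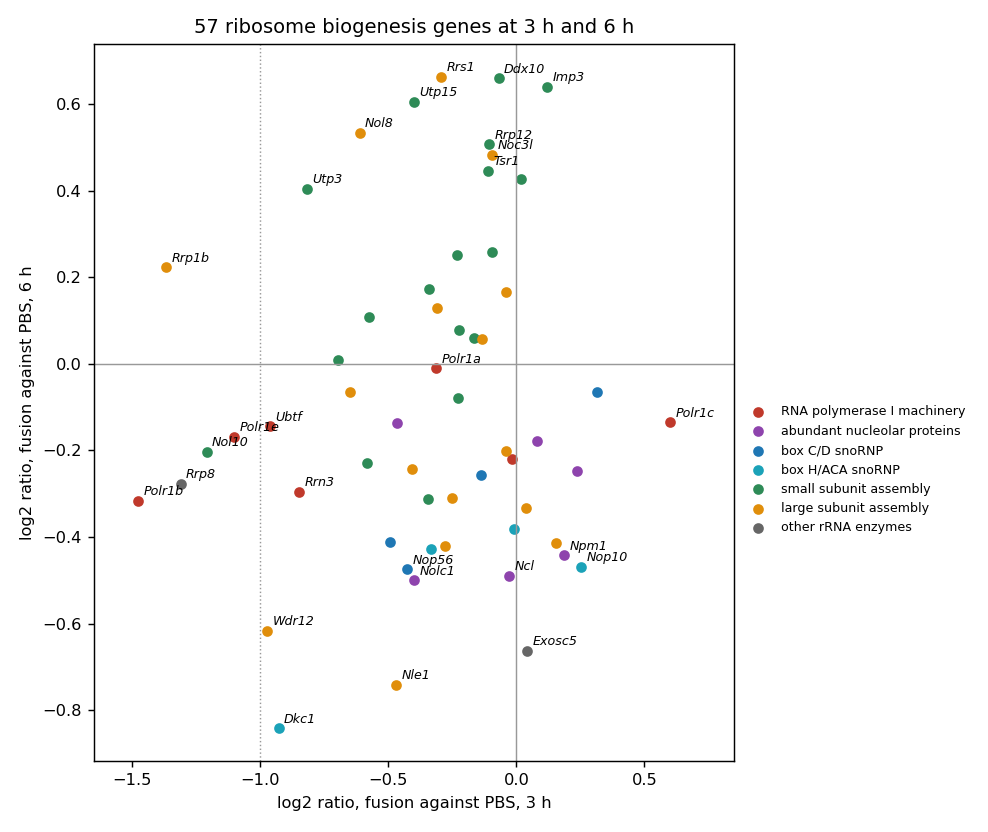
Log2 ratio of the fusion against PBS at 3 h (x axis) and 6 h (y axis) for the 57 members, coloured by role, with the dotted line at 2-fold lower. The 5 genes left of the dotted line lie between -0.32 and 0.22 at 6 h, and 12 small subunit genes (green) lie at the upper left.

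The large subunit factors were split at 6 h. The 16 genes had a median of -0.29 at 3 h, with 14 below 0, and of -0.13 at 6 h, with 9 below and 7 above. Without the genes in shared loci the 6 h median was 0.058, so its sign rests on that choice.

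Rrp1b, a nucleolar protein that also binds chromatin and splicing factors, was the lowest at 3 h. It was at 38.3 FPKM after PBS, 36.5 after Omomyc, 35.4 after FPP-1746 and 14.2 after the fusion at 3 h (-1.37) and at 25.1 FPKM after PBS, 23.3 after Omomyc, 27.6 after FPP-1746 and 29.4 after the fusion at 6 h (0.22). In PBS it was lower at 6 h than at 3 h by -0.59, the one member past 1.5-fold between the PBS columns, where 3.98% of all tested genes passed. Against the mean of both PBS columns its 6 h value was -0.10, so the direction at 6 h depends on the reference.

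PES1, BOP1 and WDR12 form the PeBoW complex that matures the 28S and 5.8S RNAs, and their genes differed from each other. Wdr12 was at 31.2 FPKM after PBS, 31.1 after Omomyc, 31.2 after FPP-1746 and 15.4 after the fusion at 3 h (-0.97) and at 32.9 FPKM after PBS, 31.4 after Omomyc, 33.6 after FPP-1746 and 21.1 after the fusion at 6 h (-0.62), below all other columns at both times. It passed 2-fold at 3 h with a pseudocount of 0.1 (-1.01) and against the mean of both PBS columns (-1.01). Pes1 was at 69.7 FPKM after PBS, 70.8 after Omomyc, 71.8 after FPP-1746 and 67.7 after the fusion at 3 h and at 62.8 FPKM after PBS, 62.0 after Omomyc, 67.0 after FPP-1746 and 70.6 after the fusion at 6 h, log2 ratios of -0.04 and 0.16. Bop1 was at 106 FPKM after PBS, 108 after Omomyc, 106 after FPP-1746 and 118 after the fusion at 3 h and at 109 FPKM after PBS, 107 after Omomyc, 113 after FPP-1746 and 82.0 after the fusion at 6 h, log2 ratios of 0.15 and -0.41. With quantile normalisation Bop1 was at -0.012 at 3 h. The table gives Bop1 and Wdr12 loci shared with other genes.

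Rrs1, which brings the 5S RNA and its proteins into the large subunit, had the highest ratio to PBS at 6 h. It was at 100.3 FPKM after PBS, 100.0 after Omomyc, 98.1 after FPP-1746 and 81.7 after the fusion at 3 h (-0.29) and at 74.1 FPKM after PBS, 69.1 after Omomyc, 76.7 after FPP-1746 and 118 after the fusion at 6 h (0.66). In PBS itself Rrs1 was lower at 6 h than at 3 h by -0.43. Against the mean of both PBS columns the 6 h ratios of the 4 members past 1.5-fold higher were 0.57 for Imp3, 0.50 for Ddx10, 0.43 for Rrs1 and 0.43 for Utp15, each short of 1.5-fold.

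Noc3l, a factor of early large subunit precursors, was at 19.3 FPKM with the fusion, against 20.7, 20.5 and 20.0 in PBS, Omomyc and FPP-1746 at 3 h (-0.09), and at 27.1 FPKM with the fusion, against 19.1, 18.8 and 19.9 in PBS, Omomyc and FPP-1746 at 6 h (0.48). Nol8 was at 11.7 FPKM with the fusion, against 18.3, 17.8 and 19.2 in PBS, Omomyc and FPP-1746 at 3 h (-0.61) and at 23.5 FPKM with the fusion, against 15.9, 15.2 and 17.7 in PBS, Omomyc and FPP-1746 at 6 h (0.53). In both genes the fusion was the highest of the columns at 6 h. Nle1, an assembly factor released from the large subunit by the AAA-ATPase MDN1, was on the opposite side, at 28.4 FPKM with the fusion, against 39.7, 36.7 and 37.6 in PBS, Omomyc and FPP-1746 at 3 h (-0.47) and at 24.5 FPKM with the fusion, against 41.7, 35.9 and 41.4 in PBS, Omomyc and FPP-1746 at 6 h (-0.74). Its Omomyc value was the second lowest at 6 h.

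Of the remaining large subunit genes, Nop2, an rRNA cytosine methyltransferase, was at -0.65 and -0.06, past 1.5-fold lower at 3 h. At 6 h Nop16, Ebna1bp2, Rrp1, Ddx18 and Nol9 lay between -0.42 and -0.20, and Nip7 and Rrp15 were at 0.13 and 0.06. Their 3 h ratios lay between -0.41 and 0.037.

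Rrp8, which methylates an adenine of 28S rRNA, was called lower at 3 h. It was at 42.8 FPKM after PBS, 44.9 after Omomyc, 46.2 after FPP-1746 and 16.6 after the fusion at 3 h (-1.31) and at 33.5 FPKM after PBS, 30.2 after Omomyc, 34.7 after FPP-1746 and 27.5 after the fusion at 6 h (-0.28). The table places it in a locus shared with Ilk and Taf10. Exosc5, a core subunit of the RNA exosome that trims 5.8S rRNA, had the reverse timing. It was at 50.9 FPKM after PBS, 47.2 after Omomyc, 49.1 after FPP-1746 and 52.4 after the fusion at 3 h (0.04, or -0.04 with quantile normalisation) and at 50.5 FPKM after PBS, 48.9 after Omomyc, 51.7 after FPP-1746 and 31.6 after the fusion at 6 h (-0.66).

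The 5 members called lower at 3 h, Polr1b, Polr1e, Nol10, Rrp1b and Rrp8, were all within 1.5-fold of PBS at 6 h. Of the 454 tested genes called lower at 3 h, 291 (64.1%) were within 1.5-fold at 6 h, which is 2.84% of all tested genes. The return of these 5 was therefore common among genes with a low 3 h value. Without the members in shared loci, 3 were called lower, Polr1b, Polr1e and Rrp1b. With a pseudocount of 5 Polr1e was at -0.81 and not called.

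Within the fusion-treated cells, 2 members were 2-fold higher at 6 h than at 3 h, Utp3 and Rrp1b, beside 7.27% of all tested genes, and none was 2-fold lower, beside 4.92%. The 1.5-fold rule gave 10 members higher at 6 h, beside 17.8% of all tested genes. They were Polr1b, Polr1e, Rrp1b, Rrp8, Nol8 and 5 small subunit genes, Utp3, Utp15, Wdr75, Nol6 and Nol10. It gave 4 lower, Polr1c, Npm1, Nop10 and Exosc5, beside 20.2%. All 18 small subunit genes were higher at 6 h than at 3 h in the fusion columns, with a median log2 ratio of 0.35. Of the 10262 tested genes 4901 were higher there, with a median of -0.030. In PBS 15 of the 18 were lower at 6 h, with a median of -0.12. Among all tested genes 51.7% were lower in PBS at 6 h, with a median of -0.0075.

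Neither part of the fusion given alone moved any member past 1.5-fold. At 3 h the largest ratio to PBS was 0.19 on the log2 scale for either part, and at 6 h 0.24 for Omomyc and 0.35 for FPP-1746. The shares of all tested genes past 1.5-fold were as small, at 0.974% for Omomyc and 0.935% for FPP-1746 at 3 h. At 6 h these shares were 0.935% and 0.906%. With Omomyc at 6 h 47 of the 57 members were below PBS (82.5%), beside 48.9% of all tested genes, but the median was only -0.056. With FPP-1746 at 6 h 36 of the 57 members were above PBS, beside 5366 of the 10262 tested genes. The median was 0.042, against 0.0046 for all tested genes. Both comparisons use the same PBS column, and against the mean of both PBS columns these medians were -0.081 and -0.00072.

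The fusion was also set against each part. At 3 h the same 5 genes were 2-fold lower with the fusion than with Omomyc, where 3.76% of all tested genes were lower, and than with FPP-1746, where 4.01% were. At 6 h no member was 2-fold lower than with Omomyc or FPP-1746, where 3.07% and 3.21% of all tested genes were. The 1.5-fold lists at 6 h differed: of the 4 members higher than PBS, Rrs1 alone was also past 1.5-fold against FPP-1746, and Utp15, Ddx10 and Rrs1 were against Omomyc, with Nol8. Of the 4 lower than PBS, all were also lower than FPP-1746, but against Omomyc only Dkc1 and Exosc5 were. The medians of the polymerase I genes were -0.86 against Omomyc and -0.83 against FPP-1746 at 3 h. These comparisons share the fusion column with the comparison against PBS.

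**Figure D4:**
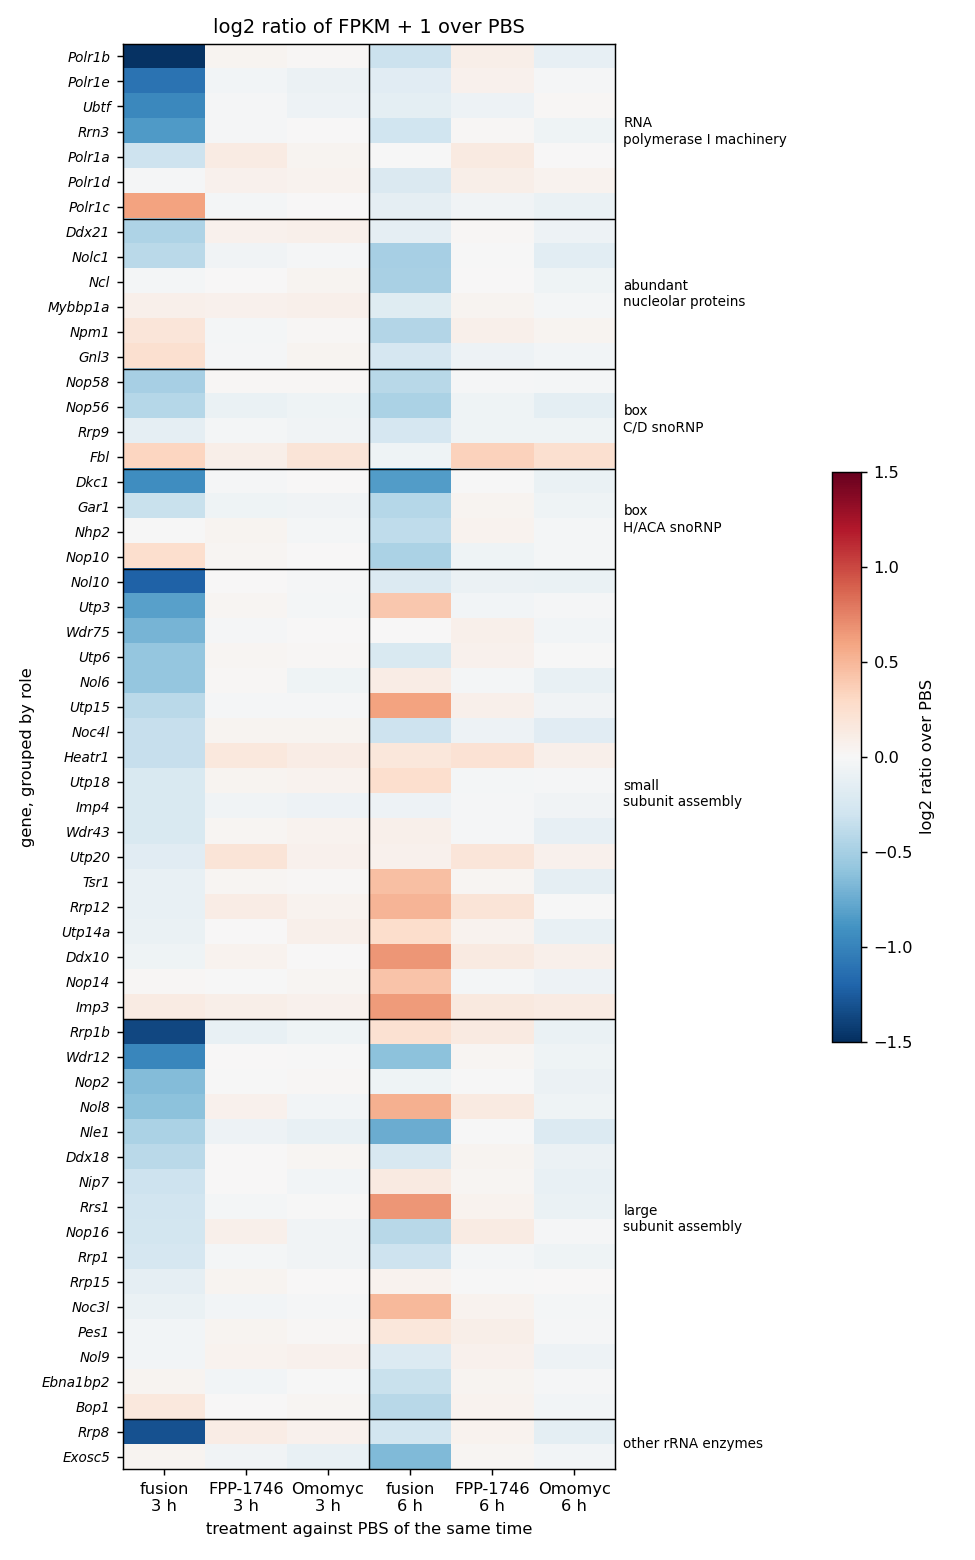
Log2 ratio of FPKM + 1 over PBS of the same time for the 57 members (rows, grouped by role and ordered by the 3 h fusion ratio) with the fusion, FPP-1746 and Omomyc (columns), where blue is lower and red is higher, on a scale from -1.5 to 1.5. The fusion columns hold the strong colours, and no ratio of a part alone exceeds 0.35 in size.

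Summed over the 57 genes, the columns without the fusion held between 5225 and 5594 FPKM, and the fusion columns 4907 FPKM at 3 h and 4743 FPKM at 6 h. As a share of the column total this was 1.14% in PBS and 0.825% with the fusion at 3 h, and 1.15% and 1.06% at 6 h. The fusion total at 3 h was the largest of all columns, and that enters the 3 h share.

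The ratios were then read by the presence of the E-box. The 11 members with CACGTG had a median of -0.23 at 3 h and the 39 without it a median of -0.33. At 6 h these medians were -0.065 and -0.20. Among tested genes with a window they were 0.036 and 0.010 at 3 h, and 0.022 and -0.044 at 6 h. At 3 h 9 of 11 members with the motif and 33 of 39 without it were below PBS. The 5 members called lower at 3 h are all among those without it in these windows. Since 39 of the 50 members with a window lack the motif, this says little by itself. The share with the motif among all genes called lower was not taken. Of the members whose promoters are printed above, Rrn3 was at -0.85 and -0.30, Nop2 at -0.65 and -0.065, Exosc5 at 0.040 and -0.66, and Utp18 at -0.23 and 0.25 at 3 h and 6 h. E-boxes outside the windows were not searched.

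**Figure D5:**
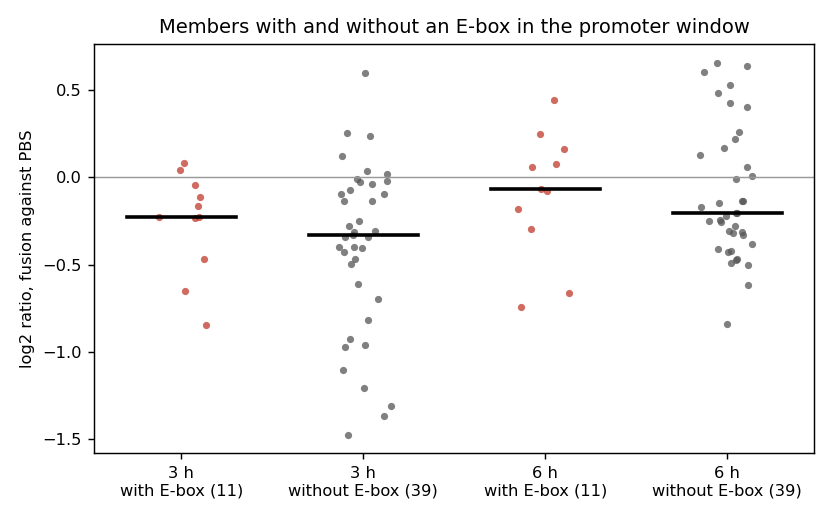
Log2 ratio of the fusion against PBS (y axis) for the 11 members with and the 39 without CACGTG in the promoter window, at 3 h and 6 h, 1 point per gene with the median as a black line. The medians lie at -0.23 and -0.33 at 3 h and at -0.065 and -0.20 at 6 h, and the points of both classes overlap.

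Protein length, taken from the GENCODE M21 coding sequences, ran weakly with the ratio in opposite directions at the 2 times. Across the 57 members Spearman's rho was -0.24 at 3 h and 0.37 at 6 h, beside -0.054 and 0.12 across the 8981 tested genes with a length. Genes are not independent replicates, and all share the same columns, so these are descriptions. The level in PBS at 3 h gave a rho of 0.29 at 3 h and -0.38 at 6 h across members. Across all tested genes it was -0.037 and -0.25, so the 6 h relation was seen there too.

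A wider set of 106 other genes of the pathway, listed in 4 groups, also lay mostly below PBS at 3 h. Of these, 104 were tested, with a median of -0.37 at 3 h and 87 below PBS. At 6 h the median was -0.072, with 59 below. The lists were chosen with earlier results of these data known. Their ratios use the same columns as the members, so they are no independent check. The 2-fold rule called 7 lower and 1 higher at 3 h, beside 4.42% and 6.13% of all tested genes, and 1 lower and 2 higher at 6 h, beside 3.34% and 7.13%. The 1.5-fold rule called 37 lower and 2 higher at 3 h, beside 14.5% and 15.7% of all tested genes. This rule called at 6 h 17 lower, near the 15.2% of all tested genes, and 7 higher, beside 17.4%.

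The 13 other genes of polymerase I and its factors had medians of -0.22 and -0.11, with 5 above PBS at each time. The lowest at 3 h was Cd3eap, which encodes a polymerase I subunit that pairs with the product of Polr1e. Its 3 h values were 54.4 FPKM after PBS and 27.3 FPKM after the fusion (-0.97), and its 6 h values 46.5 and 41.5 FPKM. At 6 h the Omomyc column, at 38.8 FPKM, was lower still. The highest at 3 h was Taf1d, a subunit of the SL1 promoter factor, at 22.5 and 41.3 FPKM (0.85). Taf1c, another SL1 subunit, was the highest at 6 h, at 5.36 and 9.25 FPKM (0.69). Polr2e, a subunit common to all 3 nuclear polymerases, was the lowest at 6 h, from 128 to 57.4 FPKM (-1.15).

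The 35 other small subunit genes had a median of -0.51 at 3 h with 31 below PBS, and of -0.058 at 6 h with 19 below. The lowest at 3 h was Rrp36, which went from 43.7 to 17.3 FPKM (-1.29) and stood at 43.2 and 59.8 FPKM at 6 h. The highest at both times was Utp23, at 0.27 and 1.29, and the lowest at 6 h was Wbscr22, an 18S rRNA methyltransferase, at -0.73. The median of these 35 genes thus also rose from 3 h to 6 h, but it stayed below PBS where that of the 18 members passed above it. The 41 genes listed as other large subunit genes had medians of -0.30 and 0.016. Zfp622, a late maturation factor, was the highest at both times, at 1.85 and 1.69. Znhit6, placed in this list but known from box C/D particle assembly, was the lowest at 3 h (-1.09). Ddx56 was the lowest at 6 h (-0.84).

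The exosome and rRNA nuclease genes were the lowest of these groups at 3 h. Their 15 genes had a median of -0.67 at 3 h with 14 below PBS, and of -0.32 at 6 h with 12 below. Exosc4 was at 30.1 and 11.5 FPKM at 3 h (-1.32), and its 6 h pair was 34.2 and 38.1 FPKM. Exosc2 was the lowest at 6 h, from 71.9 to 38.1 FPKM (-0.90). Xrn2, the nuclear 5′ to 3′ exonuclease, was the highest at both times, at 0.050 and 0.33.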

How the data were processed

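RNA-seq was made from 24 samples of T11 cells, and the authors deposited 1 table of FPKM values per gene, averaged over the 3 replicates of each of 8 groups. Tools in the submitters' processing notes are STAR 2.1.3, Cuffnorm and Cufflinks (both 2.2.1) and bcl2fastq 2.17.1.14, with build mm9. The sources used here do not give their settings, the library scaling or whether counting used strand, so overlapping genes cannot be told apart. The low-value filter kept genes averaging 1 FPKM or more, log2 ratios of FPKM + 1 were taken between columns, and 2-fold and 1.5-fold rules were applied with Python 3.11.15 and pandas 2.3.3. The size rule was checked on simulated data. No p-value is given, since each group is 1 averaged column. Gene positions follow the table (mm9), counted from 1. Promoters and protein lengths are those of GRCm38 and were joined by symbol. Values in every column are given for the polymerase I genes and for the highest and lowest of each role and the 8 highest and 8 lowest of all members at each time. Other members were named after their values were seen. The 58 members, their roles and the lists of other pathway genes were chosen with earlier results of these data known. By the table's locus field, 14 of 57 members overlap some other gene.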

Additional observations from a re-analysis of the deposited data

Results flagged for a closer look

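Of the 19 members below PBS at 3 h and above it at 6 h by any amount, 3 genes of subunit assembly were flagged. Utp3, Utp15 and Nol8 were apart from PBS both times by a minimum fold set below both fold rules used above. None of them passed the lower of those rules at both times. The share of all tested genes passing this smaller fold in opposite directions was not taken, so the count says little by itself. Utp3 was at -0.82 at 3 h and 0.40 at 6 h. Utp15 was at -0.40 and 0.61, and Nol8 at -0.61 and 0.53. No test of this difference could be run, since each group is 1 averaged column, and each time has its own PBS column. In PBS itself Utp3 was at 84.7 and 77.3 FPKM, Utp15 at 41.1 and 32.3 FPKM and Nol8 at 18.3 and 15.9 FPKM at 3 h and 6 h.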

How the results depend on the processing

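Each count and median of members was recomputed under 8 planned settings and, chosen after seeing the data, without the members in shared loci. No called value changed sign. Nearly all reported counts are 0 under the 2-fold rule and say nothing of stability. The 5 members called lower at 3 h became 3 to 7 under the 2-fold rule. Of 48 medians 44 moved by less than the spread over members between both part-alone columns. The 1.5-fold rule gave 13 lower and 1 higher at 3 h and 4 and 4 at 6 h, in place of 5 and 0 and of 0 and 0. Without members in shared loci 3 were called lower at 3 h, and the 6 h median was -0.079. Quantile normalisation gave medians of -0.37 at 3 h and -0.087 at 6 h, and the mean of both PBS columns gave -0.21 at 3 h. Of the gene values, Polr1e was lost with a pseudocount of 5. Wdr12, Dkc1 and Ubtf passed 2-fold at 3 h in 4 recomputed values. For those shifts the cause was not tested. No paired analysis was possible because the columns are group averages that carry no replicate numbers, and for the same reason no replicate could be left out. Depth per library limits what can be said of small ratios, and no spread can be put on any of them.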
